A study of Mus musculus with 21 samples.

Results

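The genes described here are 8 genes known from the developing gut and pancreas: the transcription factor genes Cdx1, Cdx2, Nkx6-1, Sox9, Prox1 and Onecut1, and the epithelial genes Vil1 and Cdh17. They were taken by name from the deposited gene tables, 8 of 78317 rows, and each symbol had 1 row. RNA was sequenced from E14 mouse embryonic stem cells, a pluripotent line, in 21 libraries that fall into 7 groups of 3. The ES group was left untreated in standard culture, the vehicle groups were kept for 3, 5 or 7 days with vehicle, and the VB6 groups for 3, 5 or 7 days with pyridoxine (VB6, vitamin B6) at 20 µM. All groups come from the 1 cell line with no named genetic change, and the sources used here do not give the vehicle, the medium, the dose schedule or whether the 3 libraries of a group are separate cultures, so p-values measure the spread between these libraries. The question in the series title is whether this vitamin promotes endoderm differentiation. The name of the gene set describes where the genes are known to act and says nothing of the cells sequenced, in which several other defining genes of intestine and pancreas stayed at or near 0 (below).

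Endoderm is the germ layer that lines the gut and gives rise to liver, pancreas and lung. Cdx1 and Cdx2 are caudal-type homeobox factors that set intestinal identity, and they also act in the posterior embryo, Cdx2 in trophectoderm as well. Nkx6-1 is a homeobox factor of pancreatic progenitors and beta cells and of the ventral neural tube. Onecut1 (HNF6) is a CUT-homeodomain factor of liver and pancreas. Sox9, an HMG-box factor, marks pancreatic progenitors and intestinal crypts and is the master factor of cartilage, and Prox1, a prospero-type homeodomain factor, acts in liver and pancreas and specifies lymphatic endothelium. Vil1 encodes villin, an actin-bundling protein of the microvilli of absorptive epithelia, which visceral endoderm also makes, and Cdh17 encodes a cadherin of the intestinal epithelium.

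In mm10 coordinates (GENCODE M21), Cdx2 lies at chr5:147300805-147307270 on the minus strand, Nkx6-1 at chr5:101658139-101664996 (minus), Vil1 at chr1:74409376-74435559 (plus), Cdh17 at chr4:11758147-11817895 (plus), Sox9 at chr11:112782224-112787760 (plus), Prox1 at chr1:190118035-190170714 (minus) and Onecut1 at chr9:74861921-74891781 (plus). The 3 promoters shown are those of the 3 genes whose difference between VB6 and vehicle varied between days. Sequences are from RefSeq (GRCm38.p6), 5′ to 3′ on the strand of the gene, ending before the GENCODE start. They cover chr5:147307271-147307499 (minus strand) for Cdx2, chr1:74409134-74409375 (plus) for Vil1 and chr1:190170828-190171077 (minus) for Prox1, and capitals mark letters that match a motif searched.
Cdx2: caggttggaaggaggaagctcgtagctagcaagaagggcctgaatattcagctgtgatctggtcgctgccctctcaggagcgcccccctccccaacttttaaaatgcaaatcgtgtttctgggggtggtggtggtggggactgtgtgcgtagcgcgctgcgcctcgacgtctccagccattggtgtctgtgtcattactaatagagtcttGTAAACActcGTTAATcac
Vil1: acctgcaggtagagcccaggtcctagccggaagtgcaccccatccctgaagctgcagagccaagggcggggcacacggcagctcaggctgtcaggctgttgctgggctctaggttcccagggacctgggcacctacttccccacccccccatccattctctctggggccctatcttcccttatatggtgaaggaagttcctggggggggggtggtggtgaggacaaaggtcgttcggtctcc
Prox1: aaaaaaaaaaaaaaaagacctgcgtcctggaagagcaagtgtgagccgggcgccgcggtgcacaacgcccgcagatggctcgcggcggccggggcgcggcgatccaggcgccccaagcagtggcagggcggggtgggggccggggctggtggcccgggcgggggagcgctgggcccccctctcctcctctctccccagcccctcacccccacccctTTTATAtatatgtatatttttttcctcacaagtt
The motifs searched on both strands were the TATA box (TATAAA), a CDX site (AATAAA, which shares all but its first base with the TATA box), a GATA site (AGATAA), a FOXA site (TGTTTAC), an HNF1 half-site (GTTAAT), a ONECUT site (ATTGAT) and a TCF/LEF site (CTTTGA). The Cdx2 window held a FOXA match 19 bases before its end, on the opposite strand, and an HNF1 half-site match 9 bases before its end. Among all 32851 RefSeq windows of 250 bases, 3.17% held the FOXA letters and 6.43% the HNF1 half-site letters. The Prox1 window held the TATA box letters on the opposite strand, 34 bases before its end, as did 12.4% of all windows on either strand. The Vil1 window held none of the 7 motifs. The windows differed in base composition, with 53.7% GC for Cdx2, 62.8% for Vil1 and 64.8% for Prox1, against a median of 52.4% over all windows. Of the 8 genes, 5 had a window in the RefSeq table, and those of Cdx1, Sox9 and Cdh17 were missing.

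Libraries held 15882380 to 21629730 counts (median 17972485), at which 3 counts, the limit that a count of 0 allows, equal 0.139 to 0.189 CPM (counts scaled to a common library size with TMM factors). Counting error alone underlies that limit. The fragment length implied by the deposited values was 227 ± 8.69 nt (SD, n = 3) in the vehicle day 5 group and 266 ± 7.77 nt in the VB6 day 7 group, while the means of the remaining 5 groups were 307 to 312 nt. Mean GC content of the counted transcripts was lowest in vehicle day 5, at 47.1 ± 0.14%. Ribosomal protein genes took 3.23% and 3.16% of counts in these 2 groups and 5.35 to 6.41% in the others, and mitochondrial genes 4.33% and 3.32% against 1.76 to 2.79%. At days 5 and 7 a difference between VB6 and vehicle, and any time step into or out of vehicle day 5 or VB6 day 7, therefore cannot be told apart from these differences between libraries. A second fit, called the corrected fit below, removed from each library the trend of expression with GC content and transcript length. For the vehicle day 5 group this trend was -0.68 on the log2 scale for a gene like Cdx1, -0.46 for Nkx6-1, -0.44 for Cdx2 and -0.23 for Vil1, whose transcripts are 53.2 to 62.1% GC. It was 0.32 for Prox1, at 45.3% GC, and near 0 for Sox9 (-0.01) and Onecut1 (-0.04). Pluripotency genes marked the course of all groups: their summed level was 5199 to 5486 CPM in the ES libraries and 347 to 503 CPM in the day 7 libraries of both arms.

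**Figure D1:**
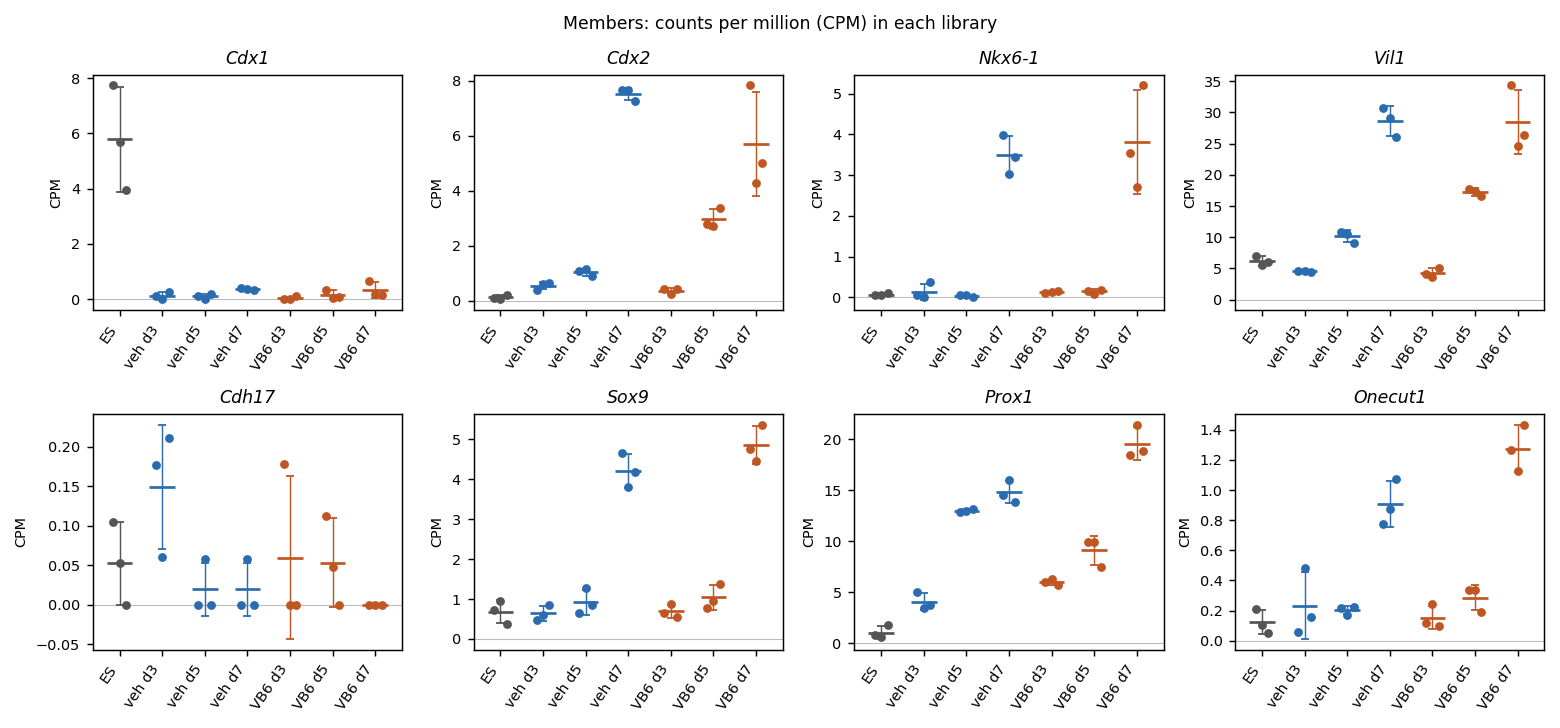
CPM (y axis, linear, 1 scale per gene) of the 8 genes in each of the 21 libraries (points), with the group mean (line) and SD (bar), for ES (grey), vehicle (blue) and VB6 (orange) at days 3, 5 and 7 (d3, d5, d7). Cdx1 was highest in ES, Cdh17 stayed at 0 to 4 counts per library, and the other 6 genes were highest at day 7.

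Across the vehicle course, 6 of the 7 genes that could be tested were higher at day 7 than at day 3, and the other, Cdx1, was not called. Differences were tested with edgeR's quasi-likelihood test over all 18901 genes that passed a filter on low counts, and a gene was called at a Benjamini-Hochberg adjusted p under 0.05. Cdh17 did not pass the filter, so 7 of the 8 genes were tested, and held 8 counts at vehicle day 3 and 1 at vehicle day 7. Cdx1 passed only through its level in ES, and Nkx6-1 and Onecut1, at no more than 8 counts in a library before day 7, only through the day 7 groups. These 3 genes had to differ between those groups and the others, so their differences and the counts and medians that include them are descriptions. From vehicle day 3 to day 7, 67.4% of all genes tested were called (34.3% higher, 33.1% lower), and the 6 genes called higher were Cdx2, Nkx6-1, Vil1, Sox9, Prox1 and Onecut1. From ES to vehicle day 3, where 64.9% of all genes were called (33.1% higher, 31.8% lower), 2 of the 7 rose (Cdx2 and Prox1) and 2 fell (Cdx1 and Vil1). From vehicle day 3 to day 5, where 65.3% were called (31.9% higher), Cdx2, Vil1 and Prox1 rose. From vehicle day 5 to day 7, where 66.3% were called (35.2% higher, 31.1% lower), Cdx2, Nkx6-1, Vil1, Sox9 and Onecut1 rose. The median log2 difference of the 7 genes was 0.87, 0.50 and 2.11 in these 3 steps, against 0.01, -0.01 and 0.02 over all genes tested. In bulk RNA, fewer cells of a type and less RNA per cell cannot be told apart.

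From ES to day 3 the 2 caudal factors went in opposite directions. Cdx1 lies at chr18:61018862-61036199 on the minus strand of mm10. Cdx1 stood at 7.75, 5.69 and 3.93 CPM in the ES libraries and at 0.118, 0 and 0.263 CPM at vehicle day 3, so all ES libraries lay above all others. Its counts were 332 over the ES libraries and 7 over the vehicle day 3 libraries, a fitted log2 difference of -5.38 ± 0.58 (SE). At vehicle day 7 Cdx1 held 0.388, 0.350 and 0.338 CPM, above every vehicle day 3 and day 5 library at 6 to 7 counts, and the difference from vehicle day 5 (1.87 ± 0.88, and 0.91 in the corrected fit) was not called by edgeR (adjusted p = 0.0643). Cdx2 was nearly absent from ES, at 0.105, 0.0522 and 0.210 CPM (1 to 4 counts). It reached 0.412, 0.602 and 0.632 CPM at vehicle day 3, 1.08, 1.15 and 0.895 at vehicle day 5, and 7.64, 7.65 and 7.28 at vehicle day 7. These groups do not overlap, and each step was called, by 2.11 ± 0.50 (adjusted p = 0.000788), 0.91 ± 0.33 (adjusted p = 0.0197) and 2.84 ± 0.24 on the log2 scale (edgeR adjusted p = 3.5e-10). The last was 2.17 in the corrected fit and was still called. The step from day 3 to day 5 was not called without vehicle day 3 replicate 1 (0.75, adjusted p = 0.0839) or without vehicle day 5 replicate 2 (0.84, adjusted p = 0.0592).

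Of 22 other gut and pancreas regulators tested, 13 rose and 2 fell from vehicle day 3 to day 7 (all genes, 34.3% and 33.1%). In the corrected fit 12 rose and 4 fell. Hnf4a rose by 2.10 ± 0.08 on the log2 scale and Sox17 by 3.16 ± 0.14. Genes of the other tissues in which Cdx2 acts gave these values over the same days. Of 10 trophectoderm genes tested, 8 rose and 2 fell from vehicle day 3 to day 7, with a summed level of 54.3 to 62.2 CPM at day 3 and 127 to 163 CPM at day 7. Esx1, a homeobox gene of the placenta, rose by 4.37 ± 0.18 on the log2 scale, and Krt7, a simple-epithelium keratin, by 3.26 ± 0.16. The placental hormone gene Prl3d1 stayed at 0 in all 21 libraries, and Elf5, a trophoblast factor, held at most 0.156 CPM as a group mean. Of 9 posterior axis genes tested, 4 rose and 2 fell, a share called near that of all genes (67.4%), with a summed level of 37.7 to 41.1 CPM at day 3 and 65.6 to 83.8 CPM at day 7. Cdx4, the other caudal factor, held at most 0.148 CPM as a group mean. The part of these cell types in the rise of Cdx2 was not tested.

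Nkx6-1 appeared at day 7. It held 0.054, 0.0576 and 0 CPM in the vehicle day 5 libraries, 2 counts in all, and 3.99, 3.04 and 3.44 CPM at vehicle day 7, 185 counts in all. The ratio of day 7 to day 5 was 94.3 (exact 95% counting interval 25.7 to 784). The fitted log2 difference was 6.31 ± 0.59, and 5.63 in the corrected fit. At vehicle day 3 its libraries held 1, 0 and 7 counts, and at ES 1, 1 and 2, and neither the step from ES (adjusted p = 0.303) nor the step from day 3 to day 5 (adjusted p = 0.11) was called. The latter was called, as a fall of 2.37 on the log2 scale, without vehicle day 3 replicate 2 (adjusted p = 0.0273). Onecut1 stayed low, at 1 to 8 counts per library until day 5, and then held 0.775, 0.875 and 1.07 CPM at vehicle day 7. The fitted log2 difference from vehicle day 5 was 2.11 ± 0.49, with no overlap between the groups. Its counts and its length-scaled values disagreed in 1 library: vehicle day 5 replicate 3 held 4 counts and 0.36 TPM (level per transcript length), while replicates 1 and 2 held 4 and 3 counts and 0.09 and 0.07 TPM.

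Most neural tube genes tested rose in the same interval as Nkx6-1. From vehicle day 5 to day 7, 8 of 11 neural tube genes tested rose and 1 fell (all genes, 35.2% and 31.1%), and their summed level went from 97.6 to 119 CPM to 158 to 190 CPM. Sox1, a factor of the early neural plate, stood at 1.86 CPM at vehicle day 5 and 36.1 at vehicle day 7, and Irx3 at 1.43 and 25.8 CPM, as group means. Among genes that mark pancreas with Nkx6-1, Pdx1 held 0.130 and 0.337 CPM at these days, Ptf1a 0.06 and 0.02 CPM and Neurog3 0.45 and 0.24 CPM, and Pax4 was at 0 in every library. Other pancreatic factors were detected: Rfx6, a factor of endocrine progenitors, went from 0.0348 CPM in ES to 7.15 at vehicle day 5 and 10.05 at vehicle day 7 (17.1 at VB6 day 7), and Neurod1, which neurons also express, held 23.6, 6.47 and 2.86 CPM in ES and at vehicle days 5 and 7. The part of neural cells in the rise of Nkx6-1 was not tested.

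Sox9 and Prox1 rose on different days. Sox9 held 0.733, 0.940 and 0.367 CPM in ES and 0.648, 1.27 and 0.839 CPM at vehicle day 5, groups that overlap. It then reached 4.65, 3.79 and 4.17 CPM at vehicle day 7, above every earlier vehicle library, a rise of 2.19 ± 0.28 on the log2 scale (edgeR adjusted p = 2.8e-07). In the same step 10 of 12 neural crest and cartilage genes tested rose and 2 fell (all genes, 35.2% and 31.1%). In the corrected fit 7 rose and 2 fell. Their summed level was 27.1 to 30.9 CPM at vehicle day 5 and 138 to 174 CPM at vehicle day 7. Col2a1, the main cartilage collagen and a target of Sox9, stood at 11.2 and 128 CPM as group means, most of the sum at vehicle day 7. Acan, the cartilage proteoglycan, stood at 1.42 and 0.87 CPM. The part of these cell types in the rise of Sox9 was not tested.

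Prox1 rose early. It held 0.785, 0.627 and 1.78 CPM in ES, 5.00, 3.43 and 3.79 at vehicle day 3 and 12.9, 13.0 and 13.2 at vehicle day 5. The groups do not overlap, and the differences were 1.93 ± 0.24 (edgeR adjusted p = 2.7e-07) and 1.67 ± 0.17 (adjusted p = 9.9e-09), the latter 1.22 in the corrected fit. At vehicle day 7 it held 14.6, 16.0 and 13.9 CPM, a difference of 0.19 ± 0.15 that was not called (adjusted p = 0.276), though the corrected fit called it at 0.42 (adjusted p = 0.0118). Endothelial genes were mixed over these days. Of 10 tested, 4 were higher and 5 lower from vehicle day 3 to day 7 (all genes, 34.3% and 33.1%). The lymphatic marker Lyve1 held at most 0.04 CPM as a group mean, Emcn was at 0 in every library, and Pecam1 fell from 103 CPM in ES to 3.44 CPM at vehicle day 7. Nr2f2, an endothelial and mesenchymal factor that acts with Prox1 in lymphatic vessels, stood at 0.09 CPM at vehicle day 3 and 46.1 CPM at vehicle day 7. Of 14 visceral endoderm and hepatic genes tested, 14 rose from vehicle day 3 to day 7. Afp reached 1080 CPM at vehicle day 7, while Alb was at or near 0.

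The 2 epithelial genes differed most of all in level. Vil1 held 7.07, 5.48 and 5.98 CPM in ES, 4.65, 4.51 and 4.47 at vehicle day 3, 10.9, 10.6 and 9.12 at vehicle day 5 and 30.7, 29.1 and 26.0 at vehicle day 7. It fell by 0.44 ± 0.15 from ES to day 3 (edgeR adjusted p = 0.0158) and then rose by 1.17 ± 0.15 (adjusted p = 2.6e-07) and 1.49 ± 0.12 (adjusted p = 3e-10). The fall was not called in the corrected fit (-0.34, adjusted p = 0.0581) or without ES replicate 1 (-0.33, adjusted p = 0.0956). Cdh17 held 19 counts over all 21 libraries, 0 to 4 in each, and was at 0 in all 3 VB6 day 7 libraries, which allows up to 0.162 to 0.182 CPM in these libraries. Its highest group was vehicle day 3, with 3, 1 and 4 counts. The ratio of that group to vehicle day 7 (1 count) was 7.76 (exact 95% counting interval 1.04 to 344). Because vehicle day 3 was named for being highest, and the interval leaves out the spread between libraries, no difference is read from it.

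The fall of Vil1 from ES to day 3 was larger per transcript length than by counts. In TPM, which divides by length, Vil1 held 4.35, 3.78 and 3.89 in ES and 1.90, 1.89 and 1.90 at vehicle day 3, and limma on log2(TPM + 0.1) gave a difference of -1.04 (adjusted p = 4.1e-06). The length that relates the 2 scales, computed as counts over FPKM and library total, was 2125, 1856 and 1815 nt in the ES libraries. It was 2446 to 2902 nt in the other 18 libraries, above every ES library. Of the other genes, only Cdx1 had an FPKM of at least 1 in ES, so none could be compared between ES and day 3 in this way. GENCODE M21 lists 4 transcripts of Vil1, whose end overlaps Usp37 on the opposite strand only at chr1:74435511-74435559. Over its whole span, most of it outside Vil1, Usp37 held 36763 counts in the 21 libraries against 5354 for Vil1. The sources used here do not say whether counting used strand. The part of Usp37 reads in the Vil1 values was not tested.

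**Figure D2:**
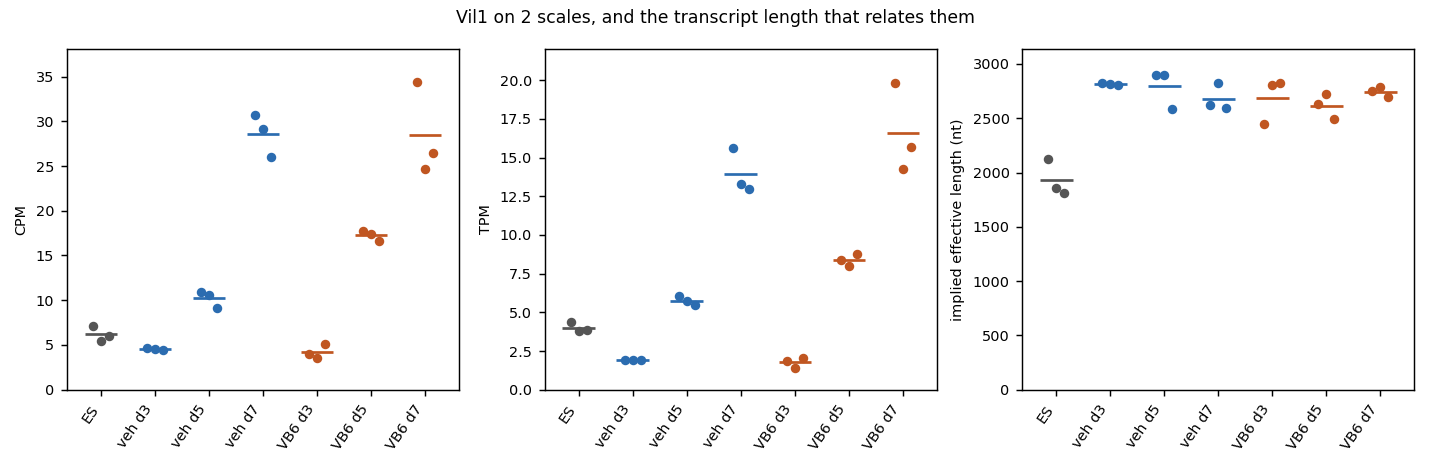
Vil1 in each library (points; lines are group means of 3) as CPM, as TPM, and the implied effective transcript length in nucleotides (y axes, linear from 0) for ES (grey), vehicle (blue) and VB6 (orange). The 3 ES libraries sit at 1815 to 2125 nt and the other 18 at 2446 to 2902 nt.

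Other genes of absorptive epithelium were mixed, and visceral endoderm genes were abundant. Of 25 other brush border and enterocyte genes, 14 were tested. From vehicle day 3 to day 7, 7 rose and 6 fell (all genes, 34.3% and 33.1%). Cdhr2, a cadherin of the microvilli, rose by 5.42 ± 0.25 on the log2 scale and Maf by 3.21 ± 0.13. The intestinal enzyme genes Alpi and Mep1a were at 0 in every library, and Sis held at most 0.345 CPM as a group mean. Of 14 visceral endoderm and hepatic genes tested, 14 rose and none fell, from a summed 1210 to 1345 CPM at vehicle day 3 to 5556 to 5904 CPM at vehicle day 7. Apoa1 rose by 7.27 ± 0.16 and Afp by 10.17 ± 0.21. Levels of Cubn and Lrp2, endocytic receptors of visceral endoderm, were 772 and 1076 CPM at vehicle day 7. The part of visceral endoderm in the rise of Vil1 was not tested.

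Vitamin B6 went with higher Cdx2 and Vil1 at day 5 and with no called difference in either at days 3 and 7. Between VB6 and vehicle, 0 of the 7 genes were called at day 3, where 4.26% of all genes were. Prox1, the 1 gene with an unadjusted p under 0.05, was 0.56 ± 0.18 higher on the log2 scale (edgeR adjusted p = 0.0819), at 6.06, 6.31 and 5.68 CPM against 5.00, 3.43 and 3.79. All VB6 libraries lay above all vehicle libraries, and DESeq2 called the difference (0.57, adjusted p = 0.023). At day 5, 3 of the 7 were called (2 higher, 1 lower), where 56.7% of all genes were (31.2% higher, 25.5% lower), so this share is below that of all genes. At day 7, 1 of 7 was called, and it was higher, where 36.5% of all genes were called (18.6% higher). In the corrected fit the called shares of all genes were 6.94%, 38.3% and 28.1% at days 3, 5 and 7, and 0, 2 and 0 of the 7 genes were called. The median log2 difference of the 7 genes was -0.12, 0.62 and 0.13 at days 3, 5 and 7, against -0.01, 0.05 and 0.01 over all genes tested.

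At day 5 Cdx2 held 2.80, 2.73 and 3.37 CPM with VB6 and 1.08, 1.15 and 0.895 with vehicle, with a wide gap between the groups. The difference was 1.50 ± 0.26 on the log2 scale (edgeR adjusted p = 2.4e-05), and 0.83 ± 0.25 in the corrected fit (adjusted p = 0.0108). Vil1 held 17.8, 17.4 and 16.6 CPM with VB6 and 10.9, 10.6 and 9.12 with vehicle, again without overlap. It was 0.76 ± 0.13 higher (adjusted p = 1.8e-05), and 0.40 ± 0.12 higher in the corrected fit (adjusted p = 0.0115). Prox1 was lower, with 9.90, 9.98 and 7.44 CPM against 12.9, 13.0 and 13.2, by 0.51 ± 0.15 (adjusted p = 0.00729). The corrected fit did not call it (-0.19, adjusted p = 0.331), and neither did the fit without VB6 day 5 replicate 3 (-0.38, adjusted p = 0.052). Nkx6-1 held 8 counts with VB6 and 2 with vehicle, a ratio of 3.96 (exact 95% counting interval 0.79 to 38.2) that edgeR did not call (adjusted p = 0.131), although the libraries did not overlap. Sox9 (0.17 ± 0.32), Onecut1 (0.49 ± 0.58) and Cdx1 (0.62 ± 1.04) were not called, and their libraries overlapped.

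At day 7 the single called gene was Prox1, at 18.4, 21.4 and 18.8 CPM with VB6 and 14.6, 16.0 and 13.9 with vehicle. The groups do not overlap, and the difference was 0.40 ± 0.15 (edgeR adjusted p = 0.0332). It was not called in the corrected fit (0.14, adjusted p = 0.482), nor without vehicle day 7 replicate 1 (0.39, adjusted p = 0.0851), vehicle day 7 replicate 3 (0.36, adjusted p = 0.109) or VB6 day 7 replicate 2 (0.33, adjusted p = 0.142). Cdx2 was 0.40 ± 0.19 lower with VB6 and was not called (adjusted p = 0.111): 2 VB6 libraries, at 4.27 and 4.99 CPM, lay below the vehicle range of 7.28 to 7.65, and VB6 replicate 1 lay above it at 7.83. With all libraries the corrected fit gave -0.12 for Cdx2 (adjusted p = 0.689). Without VB6 replicate 1, the library that lay against the difference, the uncorrected fit gave -0.70 and called it (adjusted p = 0.00836). The same library was the highest of its group in Vil1, at 34.3 CPM against 24.6 and 26.4. The group means of Vil1 were 28.5 CPM with VB6 and 28.6 with vehicle. Nkx6-1 (0.13 ± 0.31) and Sox9 (0.21 ± 0.23) were not called, and their libraries overlapped. Onecut1 held 1.27, 1.12 and 1.43 CPM with VB6 and 0.775, 0.875 and 1.07 with vehicle, groups without overlap at 14 to 27 counts per library, and its difference of 0.49 ± 0.38 was not called (adjusted p = 0.348).

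**Figure D3:**
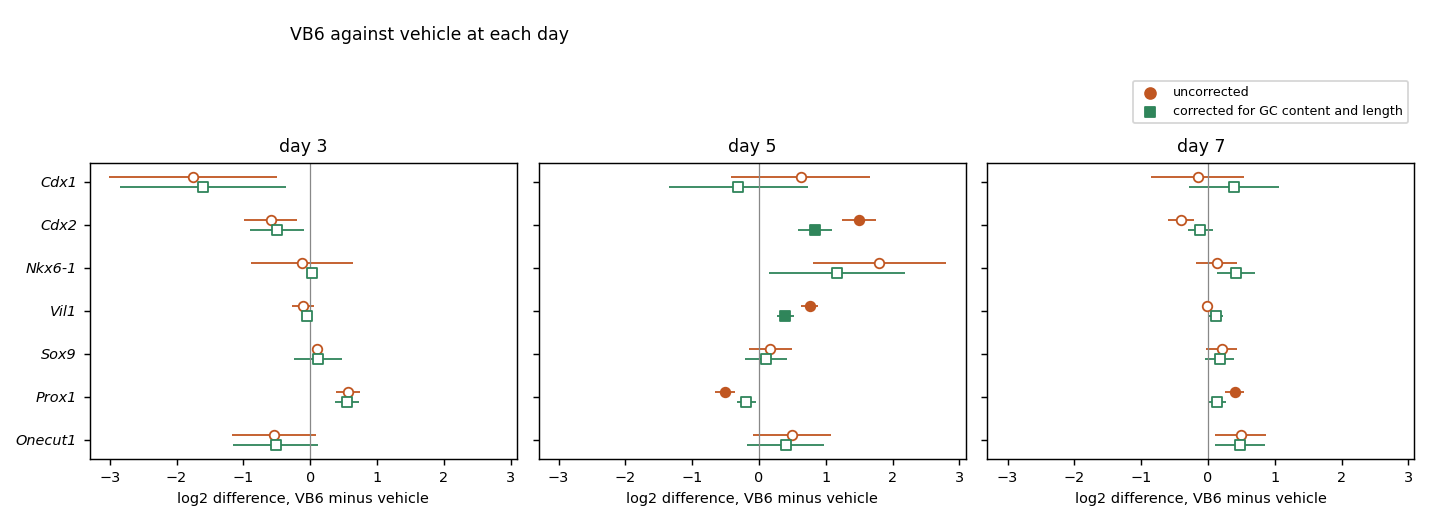
Log2 difference between VB6 and vehicle (x axis; bars are SE, drawn where the difference is at least 0.1) for the 7 genes tested at days 3, 5 and 7, from the uncorrected fit (orange circles) and the fit corrected for GC content and length (green squares). Filled symbols have an adjusted p under 0.05: Cdx2 and Vil1 are filled in both fits at day 5, and Prox1 in the uncorrected fit at days 5 and 7.

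Whether the effect of VB6 differed between the 3 days was tested directly, and 3 of the 7 genes were called, against 60.0% of all genes tested (45.3% in the corrected fit). They were Cdx2 (edgeR F test, adjusted p = 4.1e-05), Vil1 (adjusted p = 0.000467) and Prox1 (adjusted p = 0.000484). The effect on Cdx2 was 2.09 ± 0.48 larger on the log2 scale at day 5 than at day 3, and 1.90 ± 0.32 larger at day 5 than at day 7. On Vil1 it was 0.86 ± 0.21 and 0.77 ± 0.17 larger at day 5. On Prox1 it was lower at day 5 than at day 3 by 1.07 ± 0.24, and higher at day 7 than at day 5 by 0.91 ± 0.21. In the corrected fit Cdx2 (adjusted p = 0.0209) and Prox1 (adjusted p = 0.0321) were called and Vil1 was not (adjusted p = 0.149).

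Within the VB6 arm Cdx2, Vil1 and Prox1 rose from day 3 to day 5, and 6 genes rose from day 5 to day 7. From ES to VB6 day 3, where 65.3% of all genes were called (33.2% higher, 32.1% lower), Cdx2 and Prox1 rose and Cdx1 and Vil1 fell, as in vehicle, with which the arm shares its ES libraries. The rise of Cdx2 (1.52 ± 0.54, edgeR adjusted p = 0.0163) was not called without ES replicate 2 (1.18, adjusted p = 0.0802) or without VB6 day 3 replicate 3 (1.35, adjusted p = 0.0633). Cdx1 held 2 counts over the 3 VB6 day 3 libraries, and ES was 179 times higher (exact 95% counting interval 49.2 to 1487). From VB6 day 3 to day 5, where 56.2% were called (29.9% higher), Cdx2 rose by 3.00 ± 0.30, Vil1 by 2.03 ± 0.14 and Prox1 by 0.60 ± 0.17. From VB6 day 5 to day 7, where 54.5% were called (27.3% higher), 6 of 7 rose. The rise of Cdx2 was 0.94 ± 0.21, that of Vil1 0.72 ± 0.12 and that of Prox1 1.10 ± 0.15. The fitted difference of Nkx6-1 was 4.64 ± 0.47, from 0.168, 0.096 and 0.187 CPM to 3.55, 2.70 and 5.21. Sox9 rose by 2.23 ± 0.27, from 0.783, 0.960 and 1.37 CPM to 4.76, 4.44 and 5.37, and the fitted difference of Onecut1 was 2.11 ± 0.45. From VB6 day 3 to day 7, where 70.9% were called (36.1% higher), 7 of 7 were called higher. For Cdx1 this rested on 17 counts (11, 3 and 3 by library) against 2, a ratio of 9.64 (exact 95% counting interval 2.29 to 86.0). That interval leaves out the spread between libraries. The edgeR call was lost without VB6 day 3 replicate 1 (adjusted p = 0.0501), VB6 day 3 replicate 2 (adjusted p = 0.0637) or VB6 day 7 replicate 1 (adjusted p = 0.149).

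Of 30 other gut and pancreas regulators, 22 were tested, and 12 were higher and 1 lower with VB6 at day 5, where 31.2% of all genes were higher and 25.5% lower. Sox17, a factor of early endoderm, was 1.63 ± 0.13 higher on the log2 scale (edgeR adjusted p = 3.1e-10) and Foxa2, a pioneer factor of endoderm, 1.07 ± 0.12 higher (adjusted p = 7.5e-08). Their median difference was 0.38, against 0.05 over all genes, and in the corrected fit 5 were higher and none lower, with a median of 0.07, and 18.3% of all genes were higher and 20.0% lower. At day 7, 5 were higher and 2 lower (all genes, 18.6% and 17.9%), and in the corrected fit 8 were higher and none lower (all genes, 14.5% and 13.6%). Tcf7l2, a Wnt pathway factor of intestinal crypts, was 0.49 ± 0.10 higher and Onecut2, a paralog of Onecut1, 0.91 ± 0.20 higher. Of the 14 brush border genes tested, 5 were higher and none lower at day 5, with Ezr, a linker of membrane and actin in microvilli, 0.70 ± 0.08 higher and Espn, an actin bundler, 1.09 ± 0.15 higher. In the corrected fit 5 were higher and 2 lower.

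Genes of other cell types were also called between VB6 and vehicle at day 5, to be read against the 56.7% of all genes called (31.2% higher) and, in the corrected fit, 38.3% (18.3% higher). Of 14 visceral endoderm and hepatic genes tested, 11 were higher and none lower with VB6 (12 and none in the corrected fit), with a summed level of 3653 to 4047 CPM against 3236 to 3850 in vehicle. Apoa1 was 1.50 ± 0.10 and Amn, a partner of Cubn, 1.68 ± 0.11 higher on the log2 scale. Of 10 trophectoderm genes 7 were higher and 1 lower (3 and 2 in the corrected fit), with a summed 78.5 to 91.5 CPM against 72.9 to 75.5. Of 11 neural tube genes 5 were higher and 1 lower (3 and 1), a share called near that of all genes, with a summed 155 to 195 CPM against 97.6 to 119. Of 9 pluripotency genes 7 were higher and 1 lower (4 and 2), and of 12 epithelial genes 9 were higher and 1 lower (6 and 4), Krt8 by 1.25 ± 0.09. At day 7, 36.5% of all genes were called (18.6% higher, 17.9% lower), and 28.1% in the corrected fit. There the neural tube genes were lower with VB6 in 5 of 11 and higher in none (4 and none in the corrected fit). Of the 14 visceral endoderm and hepatic genes 5 were higher and 4 lower (4 and none). Of 10 endothelial genes 4 were higher and none lower (3 and none), a share called near that of all genes. The endothelial list summed to 237 to 264 CPM with VB6 and 174 to 185 CPM with vehicle at day 7, where Prox1 was higher, with Flt1 0.71 ± 0.09 higher. The part of these cell types in the differences of Cdx2, Vil1 and Prox1 was not tested.

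**Figure D4:**
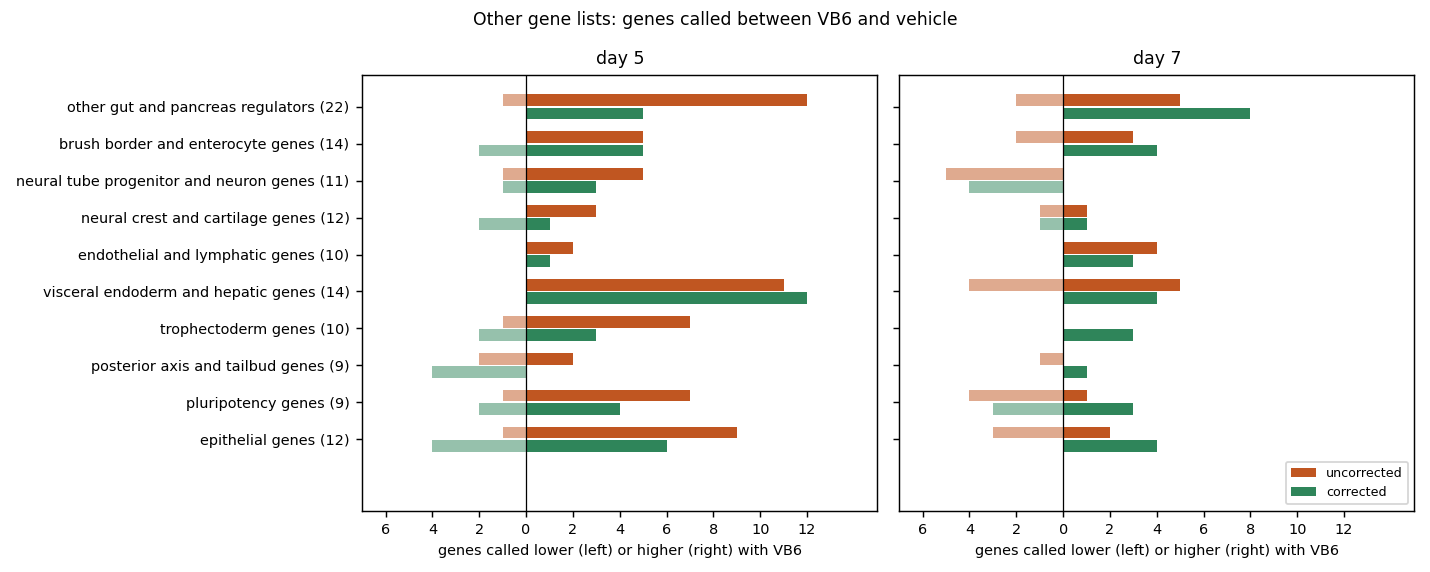
Genes called higher (right) or lower (left, paler) with VB6 than with vehicle at days 5 and 7 in 10 other gene lists (number tested in brackets), in the uncorrected fit (orange) and the fit corrected for GC content and length (green). The visceral endoderm list had 11 of 14 higher at day 5 and the regulators of gut and pancreas 12 of 22, which became 12 and 5 after correction.

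Compared per transcript length at day 7, Vil1 was the most abundant of the 8 genes in both arms, at 14.0 ± 1.44 TPM (SD, n = 3) with vehicle and 16.6 ± 2.89 with VB6. Cdx2 followed at 5.03 ± 0.195 and 4.56 ± 1.46 TPM, then Prox1 at 2.56 ± 0.175 and 4.14 ± 0.341. Nkx6-1 stood at 1.61 ± 0.252 and 2.13 ± 0.71 TPM and Sox9 at 1.44 ± 0.172 and 2.01 ± 0.191, pairs whose libraries overlap within each arm. Cdx2 and Prox1 overlapped with VB6, at 6.22, 3.45 and 4.02 TPM against 3.94, 4.53 and 3.94, and did not with vehicle. Onecut1 stood at 0.343 ± 0.0551 and 0.55 ± 0.0656 TPM and Cdx1 at 0.323 ± 0.0321 and 0.353 ± 0.309, and their libraries overlapped in both arms. Over the 7 groups in CPM, the order of Cdx2 was vehicle day 7, VB6 day 7, VB6 day 5, vehicle day 5, vehicle day 3, VB6 day 3 and ES. Neighbours in that order overlapped only at day 7 and at day 3. In Vil1 the same order held except that ES lay above day 3, with the same overlaps. In Prox1 no neighbours overlapped, in the order VB6 day 7, vehicle day 7, vehicle day 5, VB6 day 5, VB6 day 3, vehicle day 3 and ES. Sox9 and Nkx6-1 at day 7 lay above all other groups, and their remaining neighbours overlapped, except that every VB6 day 3 library of Nkx6-1 lay above every ES library.

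As a description of pattern, genes were ranked by the Pearson correlation of log2 CPM with each gene over the 21 libraries, which share days and arms, among 13716 candidates. Nearest to Cdx2 were Dusp5 (0.985), a phosphatase of ERK signalling, and Plekhg3 (0.984). Dusp5 stood at 18.9 CPM at vehicle day 5 and 36.8 at VB6 day 5, and at 111 and 77.1 at day 7, the order seen in Cdx2. Nearest to Vil1 were Gpx3 (0.990), a secreted glutathione peroxidase, and Mmp15 (0.990), a membrane-bound metalloproteinase. Nearest to Nkx6-1 were the forebrain factors Fezf1 (0.976) and Lhx2 (0.975), with Lhx2 at 0.67 CPM at vehicle day 5 and 7.39 at vehicle day 7. Nearest to Sox9 were Myh10 (0.968), a non-muscle myosin, and Alx4 (0.967), a homeobox factor of craniofacial and limb mesenchyme. Prox1 was closest to Slc25a24 (0.979), a mitochondrial carrier, and Gulp1 (0.979), an engulfment adaptor. Onecut1 was closest to Col11a1 (0.943), a cartilage collagen, and Mab21l2 (0.940), and Cdx1 to Gabbr1 (0.943) and Mok (0.943). Among the 7 genes themselves, Nkx6-1 and Sox9 were the closest pair (0.934), followed by Cdx2 and Vil1 (0.924) and by Sox9 and Onecut1 (0.907), while Cdx1 correlated negatively with Prox1 (-0.63). At 1 to 8 counts per library before day 7, the pattern of Onecut1 is set mainly by the 6 day 7 libraries. So is that of Nkx6-1, at 0 to 7 counts before day 7, while that of Cdx1 is set mainly by the ES libraries. Many candidates correlated above 0.9: 849 with Vil1, 811 with Cdx2, 611 with Prox1, 210 with Sox9, 92 with Nkx6-1, 61 with Cdx1 and 57 with Onecut1. The genes named are therefore not distinctive.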

How the data were processed

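E14 cells in 7 groups of 3 libraries were profiled by RNA sequencing. The authors deposited expected counts (estimated counts per gene, with 26.9 to 30.5% of the nonzero entries of a library fractional), TPM and FPKM; the build is mm10, per the submitters' processing notes. The labels' protocol also mentions small RNA enrichment, so library preparation is uncertain. Aligner, counter, strandedness and annotation: not given in the sources used here.

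Expected counts were rounded (the design had assumed whole counts). Rows without a symbol held 1.34% of counts and were kept in the fit. Genes passing filterByExpr with 7 groups were tested with edgeR 4.0.16 (quasi-likelihood, TMM, a mean per group, R 4.3.3), with Benjamini-Hochberg adjustment over 18901 genes. SE was derived from the log2 difference and the F statistic where the difference was at least 0.1. CPM values use TMM library sizes, and log2 CPM for correlations a prior count of 2. The corrected fit used a robust spline (5 degrees of freedom each for GC content and length, GENCODE M21) as an offset, for 17418 genes. Fragment length was transcript length minus effective length, over genes with 100 counts or more and FPKM of 3 or more. Effective length for single genes needed an FPKM of at least 1. Counting intervals are exact and two-sided, use counts pooled over the libraries of a group, and leave out the spread between libraries. The script was tested on simulated data.

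The 8 genes and all gene lists were chosen with earlier results of these data known. Named genes were the 8 genes in every comparison, for each the 2 best correlated protein-coding genes with a highest group mean of at least 1 CPM, and from each list up to 2 genes with the smallest p. Other list genes, given with levels only, were chosen after their values were seen. Alternatives were DESeq2 1.42.0 and its size factors, no filter, a stricter filter, only the groups compared, a replicate block, the correction, limma 3.58.1 on log2(TPM + 1) and log2(TPM + 0.1), and leaving out each library. Same-numbered libraries did not deviate together, and replicate numbers were not used to pair them.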

Additional observations from a re-analysis of the deposited data

Results flagged for a closer look

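The difference between VB6 and vehicle varied between days 3, 5 and 7 in 3 of the 7 genes tested. That share is below the 60.0% of all genes tested that were called. For Cdx2 the edgeR F test gave an adjusted p of 4.1e-05, for Vil1 an adjusted p of 0.000467 and for Prox1 an adjusted p of 0.000484. Cdx2 and Vil1 were higher with VB6 at day 5, and not called at days 3 and 7. Prox1 was lower with VB6 at day 5 and higher at day 7, and the corrected edgeR fit called neither (adjusted p = 0.331 and 0.482). Between days the corrected fit called Cdx2 (adjusted p = 0.0209) and Prox1 (adjusted p = 0.0321) and not Vil1 (adjusted p = 0.149), where 45.3% of all genes were called. At days 5 and 7 these differences cannot be told apart from the differences in fragment length between libraries. Groups of 3 libraries are too small for a test of single libraries that stand apart.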

How the results depend on the processing

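Over all alternatives, 1375 values of single genes were recomputed: 1343 stayed on the same side of the threshold, 22 lost their call, 10 gained one, and no called value changed sign, while 52 values that were not called did. The count of genes called between VB6 and vehicle at day 3 was 1 in place of 0 with DESeq2, without a filter and with only the groups compared (Prox1 each time), and 0 to 1 when each library was left out. At day 7 it was 0 in place of 1 with the GC and length correction, alone or with the replicate block, 2 with limma on log2(TPM + 1), which adds Sox9 (0.30, adjusted p = 0.0454), and 0 to 2 when each library was left out. At day 5 it was 2 to 3 when each library was left out and 2 with the correction. Leaving out each library gave 3 in the test between days, 3 to 4 from ES to vehicle or VB6 day 3, 2 to 4 from vehicle day 3 to day 5 and 6 to 7 from VB6 day 3 to day 7, and changed no other count. The replicate block alone changed no count (3 at day 5, 1 at day 7). Correlations between same-numbered libraries were -0.15 to 0.08. Cdx2 from ES to day 3 was not called by limma on log2(TPM + 1) in vehicle (adjusted p = 0.0813) or VB6 (0.327). The depth limits Cdh17, and Cdx1 and Nkx6-1 before day 7, which held 0 to 7 counts per library outside ES. The cause of these changes was not tested.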
